A study of Mus musculus with 9 samples.

Results

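The RSK and S6 kinase family was read here as 10 genes, every row of the deposited count table whose Ensembl identifier maps to one of the mouse symbols Rps6ka1 to Rps6ka6, Rps6kb1, Rps6kb2, Rps6kc1 and Rps6kl1. The table held 52550 genes, of which 11893 had enough reads to be tested, all 10 family members among them. Messenger RNA came from mouse embryonic stem (ES) cells of the hybrid V6.5 line, grown in serum with LIF and inhibitors of GSK and of MEK, and was sequenced from its 3' ends with a QuantSeq FWD kit. There were 4 libraries labelled wild-type (WT) and 5 labelled as double knockout of KLF2 and KLF4 (DKO), and both groups had the same medium, so the MEK inhibitor was present in every library. The labels do not say whether replicates were separate cultures, nor how many clones the DKO libraries represent, so p-values measure only the spread between these libraries, which may be technical. The family was selected on its DKO-over-WT fold changes in these same libraries, chiefly the rise of Rps6kl1, so the changes of members are given as a description, with no p-value for a single member.

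The family is named for ribosomal protein S6, which its best known members phosphorylate. The RSKs (Rps6ka1, Rps6ka2, Rps6ka3 and Rps6ka6) are switched on by ERK together with PDK1, and the MSKs (Rps6ka4 and Rps6ka5) are nuclear kinases that ERK or p38 activates and that phosphorylate histone H3 and CREB. The S6 kinases proper (Rps6kb1 and Rps6kb2) act below mTORC1, the growth-control complex that senses amino acids and insulin. Rps6kc1 and Rps6kl1 share kinase-like sequence with the family, and less is known of what they do. In ES cells the MEK and ERK pathway drives exit from the naive state, which is why a MEK inhibitor is part of the medium.

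The libraries held 6035642 to 7098530 counts, and a floor of 3 counts in 1 library was 0.426 to 0.506 CPM (counts scaled to library size). Klf2 and Klf4, the genes the knockout names, were both higher in the libraries labelled DKO, at 460 ± 9.87 against 615 ± 19 CPM and 848 ± 49.1 against 1595.2 ± 140 CPM (mean ± SD of 4 and 5 libraries). Levels below are likewise mean ± SD over the libraries of a group. The labels do not give the deleted parts, and a 3' tag outside a deleted part checks nothing, so every direction here is that of the libraries labelled DKO. The 8 ES cell markers fixed for this check were all present, with a summed level of 2043.5 to 2169.6 CPM in WT and 2592.3 to 2716.9 in the libraries labelled DKO, although Pou5f1 alone was low, at 23.9 and 21.5 CPM. The 10 feeder fibroblast markers summed to 5.54 to 6.56 CPM in WT and 2.03 to 4.07 in DKO, with Lum at 0 in every library and Dcn at 1 count in all. The 12 markers of differentiated lineages summed to 101 to 119 and 51.4 to 75.2 CPM, most of it Tubb3. The genes of a sum did not all move with it, as members picked after their values were seen show. Of the ES cell markers Dppa5a went from 404 to 789 CPM, while Tdgf1 fell from 297 to 168 and Zfp42 from 333 to 290 (edgeR adjusted p = 4.1e-15 and 0.00318). The lower feeder sum lay mainly in Twist1 (71 counts over the 4 WT libraries and 17 over the 5 labelled DKO) and Thy1 (22 and 3). Col1a1 (18 and 19 counts, 0.669 and 0.587 CPM) and Pdgfrb (36 and 37 counts, 1.32 and 1.17 CPM) were only slightly lower. Of the lineage markers Tubb3 fell from 75.3 to 32.9 CPM and Gata3 from 7.27 to 3.89. Foxa2 (10 counts in WT and 26 in DKO, 0.371 and 0.821 CPM) and Pax6 (9 and 31 counts, 0.333 and 0.978 CPM) went the other way. All 3 sums differed between the groups (exact permutation p = 0.00794 for each, 2-sided, the smallest that 126 divisions of the libraries can give, Benjamini-Hochberg 0.00794), and their part in the results below was not tested. In such bulk samples, fewer cells of a type and less RNA per cell cannot be told apart.

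The stretches of 250 bases before the annotated start of 3 members are shown because these members had the largest changes in size, 1 of them downward. They come from RefSeq on GRCm38.p6, which has an entry for 8 of the 10 members, and are written 5' to 3' on the strand of the gene, here the minus strand in each case. Capitals mark matches to GGGNGNGG on either strand, a core to which KLF factors bind and which a GC box bound by SP factors also fits. Rps6kl1 lies at chr12:85151265-85151514, Rps6ka4 at chr19:6840628-6840877 and Rps6ka6 at chrX:111537960-111538209.
Rps6kl1: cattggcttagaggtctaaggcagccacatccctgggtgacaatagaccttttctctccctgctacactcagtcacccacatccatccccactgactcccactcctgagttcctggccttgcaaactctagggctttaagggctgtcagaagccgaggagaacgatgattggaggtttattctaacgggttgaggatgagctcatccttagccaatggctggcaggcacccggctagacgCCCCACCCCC
Rps6ka4: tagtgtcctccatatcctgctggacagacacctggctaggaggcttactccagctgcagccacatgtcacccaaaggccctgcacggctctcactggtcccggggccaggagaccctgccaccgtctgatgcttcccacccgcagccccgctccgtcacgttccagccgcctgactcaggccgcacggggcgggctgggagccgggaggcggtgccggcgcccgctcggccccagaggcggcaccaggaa
Rps6ka6: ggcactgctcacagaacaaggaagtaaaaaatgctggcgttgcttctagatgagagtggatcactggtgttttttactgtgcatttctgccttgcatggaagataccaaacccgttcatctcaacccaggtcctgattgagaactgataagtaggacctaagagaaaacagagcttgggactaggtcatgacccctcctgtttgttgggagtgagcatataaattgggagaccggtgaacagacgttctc
The Rps6kl1 window held 2 overlapping matches, which began 10 and 8 bases before the start of the gene. The other windows shown held none, but a further annotated start of Rps6ka6, whose window at chrX:111463498-111463747 is not shown, had 3 matches. Of 32851 promoter windows of this length in the table, 45.9% held at least 1 match and 27.3% held 2 or more. Across the family, 7 of 11 windows had a match, and the most, 6, stood before the main start of Rps6ka1. None of the 11 held AACCGGTT, the site of GRHL factors, which 0.116% of all windows held. The Rps6ka4 window was 69.6% G and C with 18 CpG dinucleotides, the Rps6kl1 window 55.2% with 5 and the Rps6ka6 window 46.4% with 4, beside medians of 52.4% and 6 over all windows.

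Rps6kl1 (ENSMUSG00000019235, mm10 chromosome 12, 85135249 to 85151264, minus strand) was the least abundant member in WT and ranked 4 of 10 in the libraries labelled DKO. Its reads numbered 19, 10, 16 and 15 across WT 1 to 4, against 138, 133, 89, 131 and 187 across DKO 1 to 5. As levels these were 2.84, 1.52, 2.35 and 2.13 CPM in WT, and 20.6, 20.8, 14.6, 22.1 and 29.4 CPM in DKO. Every library labelled DKO stood above every WT library, with DKO 3 the lowest of the 5 and DKO 5 the highest. The log2 fold change was 3.27 ± 0.21 (SE), or 9.65-fold, which placed the gene 26th from the top of all 11893 genes tested. Without DKO 3 the log2 fold change was 3.38. The spread among the 5 libraries labelled DKO was a coefficient of variation of 24.5%, where counting alone would give 8.59%, while in WT it was 24.7% beside 25.8% from counting. The read minimum of the test was 1.52 CPM, the level of WT 2, and the other 8 libraries lay above it.

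Rps6ka4, which encodes MSK2, had the largest fall of the family. The gene (ENSMUSG00000024952, chromosome 19, 6829085 to 6840636, minus strand) gave 53, 74, 67 and 73 reads across WT 1 to 4, against 16, 15, 26, 14 and 15 across DKO 1 to 5. The levels were 7.93, 11.3, 9.84 and 10.4 CPM in WT, and 2.39, 2.35, 4.27, 2.36 and 2.36 CPM in DKO. The groups did not overlap, and 4 of the 5 libraries labelled DKO lay between 2.35 and 2.39 CPM, with DKO 3 above them. The log2 fold change was -1.84 ± 0.21 (SE), a level 3.58-fold lower, and -2.05 without DKO 3. Its close relative Rps6ka5, which encodes MSK1, stood at 6.51 ± 1.12 CPM in WT and at 6.84 ± 1.21 CPM among the 5 labelled DKO, with overlapping groups and a log2 fold change of 0.07 whose 95% interval ran from -0.29 to 0.44. The 2 MSK genes together held 5.53% ± 0.73 of the family's CPM in WT and 2.86% ± 0.603 in DKO. In WT the level of Rps6ka4 lay above that of Rps6ka5 on average, and in DKO the order was the other way round, with no overlap between the 2 genes' libraries there.

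**Figure D1:**
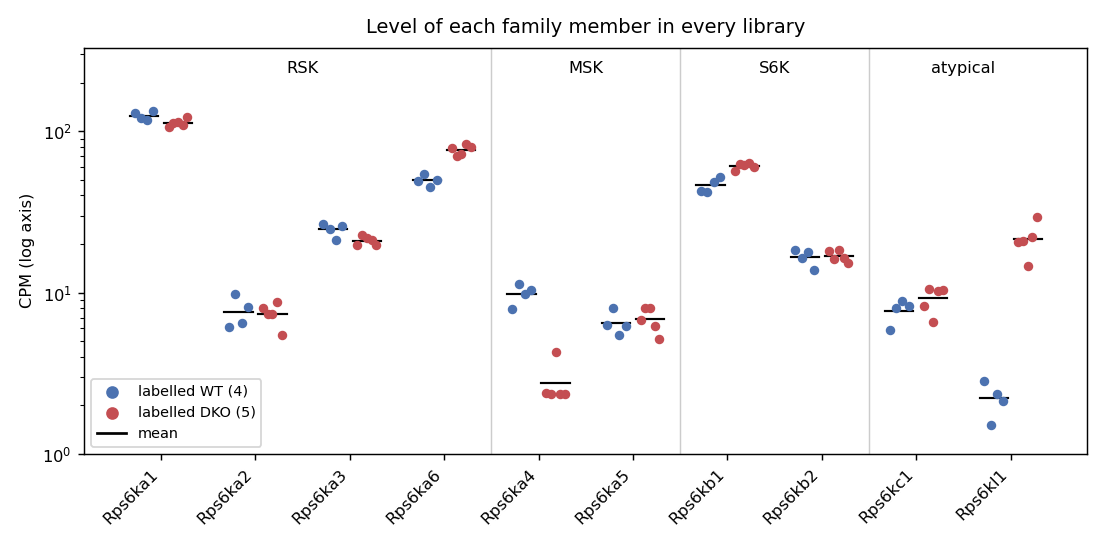
Level of each family member in CPM (log axis), 1 point per library, blue for the 4 libraries labelled WT and red for the 5 labelled DKO, with a black line at the mean. Rps6kl1, Rps6ka6 and Rps6kb1 are higher in every library labelled DKO, Rps6ka4 is lower in every one, and the other 6 members overlap.

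Among the RSKs, Rps6ka1, which encodes RSK1, was the most abundant member of the whole family in both groups. It (ENSMUSG00000003644, chromosome 4, 133847290 to 133887797, minus strand) stood at 130, 120, 117 and 133 CPM in WT 1 to 4 and at 106, 113, 114, 110 and 122 CPM in DKO 1 to 5. The ranges overlap, and the log2 fold change was -0.15 ± 0.06 (SE). The median log2 fold change of the 50 tested genes nearest to it was -0.27. Rps6ka6, which encodes RSK4, an X-linked member known for activity without growth factor stimulation, was higher in every library labelled DKO. This gene (ENSMUSG00000025665, chromosome X, 111388192 to 111537959, minus strand) had 49.2, 54.1, 45.4 and 50.1 CPM in WT 1 to 4 and 78.4, 70.4, 72.2, 83.7 and 80.4 CPM in DKO 1 to 5. The log2 fold change was 0.63 ± 0.07 (SE), or 1.55-fold.

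The other X-linked member, Rps6ka3, encodes RSK2, whose loss causes Coffin-Lowry syndrome in people. It (ENSMUSG00000031309, chromosome X, 159210307 to 159368244, plus strand) had 26.5, 24.9, 21.3 and 25.8 CPM in WT and 19.7, 22.7, 21.8, 21.3 and 19.6 CPM in DKO, with WT 3 inside the DKO range. Its log2 fold change was -0.23, with an unadjusted 95% interval of -0.43 to -0.03. It did not reach an edgeR adjusted p under 0.05 in the reported fit, and did so in 1 of 16 fits, that without WT 3. All 16 re-use libraries on which the family was chosen, so nothing is read from that either. The 2 X-linked RSKs therefore had fold changes of opposite sign, beside a median of 0.10 over the 400 tested genes of chromosome X. Rps6ka2, which encodes RSK3 (ENSMUSG00000023809, chromosome 17, 7170115 to 7303315, plus strand), ran from 6.13 to 9.76 CPM in WT and from 5.5 to 8.78 in DKO, and its 95% interval was -0.39 to 0.32. Summed over the 4 RSK genes the level was 207 ± 11.8 CPM in WT and 218 ± 6.84 in DKO, with overlapping groups. Within that sum the share of the family's CPM held by Rps6ka1 was 42.2% ± 1.55 in WT and 33.5% ± 1.32 in DKO, and that of Rps6ka6 was 16.8% ± 1.03 and 22.9% ± 1.38.

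Rps6kb1, which encodes S6K1, the main kinase of S6 below mTORC1, was higher in every library labelled DKO. The gene (ENSMUSG00000020516, chromosome 11, 86498871 to 86544805, minus strand) had 42.8, 42.2, 48.2 and 52.3 CPM in WT 1 to 4 and 56.7, 62.5, 62.0, 63.8 and 60.1 CPM in DKO 1 to 5. The gap between the groups was small, from 52.3 CPM in WT 4 to 56.7 in DKO 1, and the log2 fold change was 0.39 ± 0.08 (SE), or 1.31-fold. Its 3' end overlaps that of Rnft1, on the other strand, by 155 bases, and Rnft1 itself stood at 9.08 and 10.2 CPM. Rps6kb2, which encodes S6K2 (ENSMUSG00000024830, chromosome 19, 4153991 to 4163354, minus strand), had 18.4, 16.3, 17.8 and 13.9 CPM in WT and 18.2, 16.1, 18.5, 16.4 and 15.2 CPM in DKO. These ranges were nearly the same, and the 95% interval of the log2 fold change was -0.21 to 0.26. Rps6kb2 overlaps Coro1b (53.6 and 48.0 CPM) by 45 bases at its 3' end, and the strand setting of the counting is not given in the sources used here, so its counts are uncertain. Rps6kc1, which encodes a kinase-like protein with a lipid-binding PX domain (ENSMUSG00000089872, chromosome 1, 190700202 to 190911770, minus strand), ran from 5.83 to 8.82 CPM in WT and from 6.57 to 10.5 in DKO, with a 95% interval of -0.09 to 0.59.

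**Figure D2:**
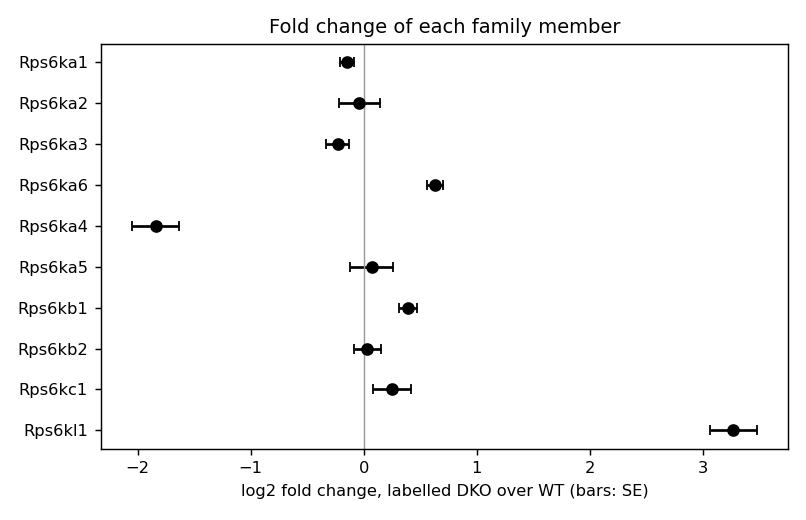
Log2 fold change of each member, libraries labelled DKO over WT, with bars for the SE of the edgeR fit. Rps6kl1 lies at 3.27 and Rps6ka4 at -1.84, and the other 8 members lie between -0.23 and 0.63.

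Of the 10 members 3 rose and 2 fell at an edgeR adjusted p under 0.05, beside 47.8% of all genes tested that passed in either direction (23.9% up and 24% down). CPM did not overlap between the groups for 4 members, beside 37.4% of all genes tested. The family was chosen with this contrast known, so nothing is read from these counts. The fall of Rps6ka1 is one of the 5 and passed in 9 of 16 fits. It missed the threshold with DESeq2, with no read minimum, and without WT 1, WT 4, DKO 1, DKO 2 or DKO 4, where the log2 fold change was -0.12 to -0.15. The median log2 fold change of the family was 0.05 and the median size 0.24, beside 0.01 and 0.26 over all genes tested.

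Because each tag stands for about 1 transcript, CPM can be set side by side between genes without division by length, though priming and mapping near each 3' end also enter. In WT the order of mean levels was Rps6ka1, Rps6ka6, Rps6kb1, Rps6ka3, Rps6kb2, Rps6ka4, Rps6kc1, Rps6ka2, Rps6ka5 and Rps6kl1. Of the 9 neighbouring pairs in that order 5 had libraries that did not overlap. Rps6ka6 and Rps6kb1 overlapped, and so did each neighbouring pair from Rps6ka4 down to Rps6ka5. In the libraries labelled DKO, Rps6kl1 entered between Rps6kb1 and Rps6ka3, overlapping Rps6ka3, and Rps6ka4 came last, while Rps6ka6 stood apart from Rps6kb1. There 6 of 9 neighbouring pairs did not overlap. The family total was 296, 296, 282 and 310 CPM in WT 1 to 4 and 325, 333, 330, 344 and 350 CPM in DKO 1 to 5, so every DKO total was above every WT total. Rps6kl1 supplied 0.749% ± 0.192 of it in WT and 6.37% ± 1.4 in DKO.

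**Figure D3:**
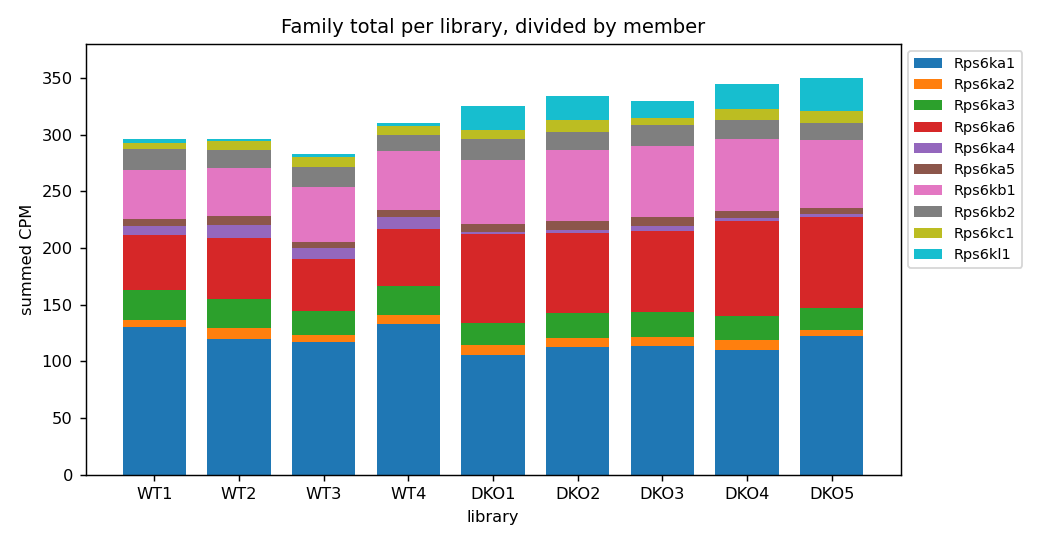
Summed CPM of the 10 members in each library, with each bar divided by member. The totals run from 282 to 310 CPM in WT and from 325 to 350 in the libraries labelled DKO, and the band of Rps6kl1 widens while that of Rps6ka4 narrows.

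The surroundings of Rps6kl1 were compared next, since position was no part of how the gene was chosen. Of the 5 nearest protein-coding genes on each side, 8 of 10 met the read minimum, and 1 of them rose and 3 fell, beside 47.8% of all genes tested that passed in either direction. Dlst, which encodes a subunit of the oxoglutarate dehydrogenase complex, ends 403 bases from the 3' end of Rps6kl1 on the other strand. It fell from 147 ± 7.94 to 131 ± 7.70 CPM, a log2 change of -0.16 ± 0.06 (SE, edgeR adjusted p = 0.0176), opposite in sign to Rps6kl1. Ylpm1 fell by 0.24 on the log2 scale and Eif2b2, a subunit of the initiation factor eIF2B, by 0.16 (edgeR adjusted p = 0.00026 and 0.0114), and Acyp1 rose by 0.35 (edgeR adjusted p = 0.0191). Fcf1 (-0.08), Arel1 (-0.30), Mlh3 (-0.03) and Zc2hc1c (-0.12) did not pass, though Arel1 did with RLE factors, with a filter of 5 CPM, with the replicate block and without DKO 5 (edgeR adjusted p = 0.0473, 0.0426, 0.0308 and 0.0292). Prox2 and Pgf had 9 and 22 counts over all libraries. The 50 tested genes nearest to Rps6kl1, within 2.11 Mb, had a median log2 fold change of 0.01. The calls of Dlst (without WT 2 or DKO 3, edgeR adjusted p = 0.0740 and 0.0540), Eif2b2 (without WT 4, 0.0559) and Acyp1 (without WT 1, WT 3 or DKO 2, 0.138, 0.0740 and 0.0600) were lost when any 1 of the libraries named was left out. That of Acyp1 was also lost with DESeq2 (adjusted p = 0.0512).

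**Figure D4:**
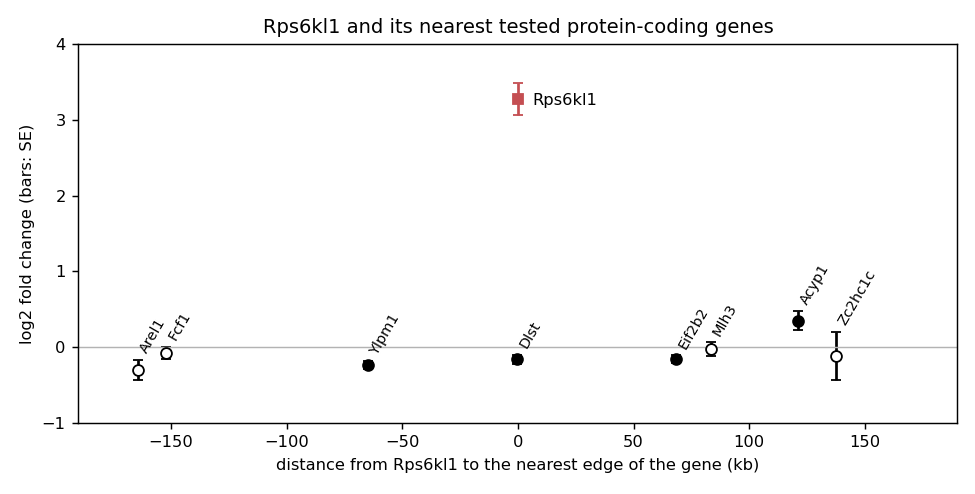
Log2 fold change, libraries labelled DKO over WT, of Rps6kl1 (red square) and its 8 tested neighbours (circles, filled where the adjusted p was under 0.05), against the distance in kb from Rps6kl1 to the nearest edge of each gene. Bars are SE, and the neighbours lie between -0.30 and 0.35.

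The genes whose levels followed Rps6kl1 most closely over the 9 libraries were Cdkn1a, which encodes the cell cycle inhibitor p21 (Pearson r = 0.996 on log2 CPM), Slain2, of microtubules (0.996), Dock1, an activator of RAC (0.995), Msrb2, a methionine sulfoxide reductase (0.993), and Tgfbr3, a co-receptor for TGF-beta (0.993). Tgfbr3 went from 4.05 to 24 CPM and Dock1 from 26.4 to 73.5. The libraries fall into the 2 groups, so these values mostly describe a shared difference between groups, and 1069 of 11892 genes had r of at least 0.9. Within the 5 libraries labelled DKO alone, which share the low value of DKO 3, r ran from 0.88 (Msrb2) to 0.97 (Tgfbr3). These libraries entered the choice of the 5 genes, so a high r here is partly built in.

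Upstream of RSKs and MSKs, Ksr1, a scaffold that brings RAF, MEK and ERK together, fell from 15.7 ± 1.70 to 6.56 ± 0.73 CPM, a log2 change of -1.26 ± 0.15 (SE, edgeR adjusted p = 8.3e-09). Of 17 tested members of this ERK and p38 list 3 rose, Mapk13 (0.74) among them, and 4 fell (Ksr1, Braf, -0.39, Map2k3, -0.19, and Mapk11, -0.80), with a median of -0.06, so 41.2% passed, beside 47.8% of all genes tested. Mapk13 and Mapk11 encode p38 kinases and had means under 5 CPM. Nras (-0.06) did not pass. Braf lies on chromosome 6, where the 50 tested genes nearest to it had a median of -0.15. Leaving genes on chromosomes 6 and 8 out of the count left 1 up and 3 down of 14, and the matching share over all genes was not taken. The calls of Map2k3 (without DKO 4 or DKO 5, edgeR adjusted p = 0.0587 and 0.0555), Mapk13 (without WT 2, WT 3 or DKO 1, 0.0986, 0.0743 and 0.0514) and Mapk11 (without WT 3, DKO 2 or DKO 4, 0.111, 0.0538 and 0.0629) were lost when any 1 of the libraries named was left out. Those of Mapk13 and Mapk11 were also lost with DESeq2 (adjusted p = 0.0524 and 0.0713). Mapk12, another p38 kinase, picked after its values were seen, was below the read minimum, with 6, 11, 15 and 14 reads across WT 1 to 4, against 1, 2, 1, 3 and 0 across DKO 1 to 5. It entered 3 of the alternatives, with a log2 fold change of -2.93 with DESeq2, -2.82 with no read minimum and -3.03 without WT 1. In the last it met the minimum only through WT libraries, where it was high. These fits re-use the same counts, so they are not separate evidence.

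Upstream of the S6 kinases, Ddit4, a stress-induced inhibitor of mTORC1, went from 98.6 ± 8.06 to 189 ± 14.7 CPM, a log2 change of 0.94 ± 0.06 (SE, edgeR adjusted p = 1.5e-14). Sesn2, a leucine sensor that restrains the same complex, rose by 0.68 (edgeR adjusted p = 1.1e-08). Of the Rag GTPases, which carry mTORC1 to the lysosome, Rragc (0.75) and Rragb (1.69, from 1.54 to 5.05 CPM) rose. In WT, Rragb lay at 1.18 to 1.99 CPM, on both sides of the read minimum of 1.52, which it met through the libraries labelled DKO. Pik3r1, the regulatory subunit of PI3 kinase, rose by 0.52. Of 28 members, all tested, 7 rose and 6 fell, with a median of -0.02, so 46.4% passed, beside 47.8% of all genes tested. Outside the naming rule, and picked after their values were seen, Deptor (0.32), a brake on the pathway, rose as well, and the falls were Rraga (-0.24), Castor1 (-0.50), Rptor (-0.35), Akt1s1 (-0.41), Lamtor4 (-0.24) and Lamtor5 (-0.38). Akt1s1 and Castor1, like Ddit4, Sesn2 and Deptor, encode inhibitors of mTORC1, so inhibitors went both ways. Lamtor1 (0.03) and Akt2 (-0.07) did not pass. Mtor, the kinase itself, stood at 45.2 and 46.9 CPM (0.06) and did not pass. Rraga and Rragb are close copies, so their split is uncertain.

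**Figure D5:**
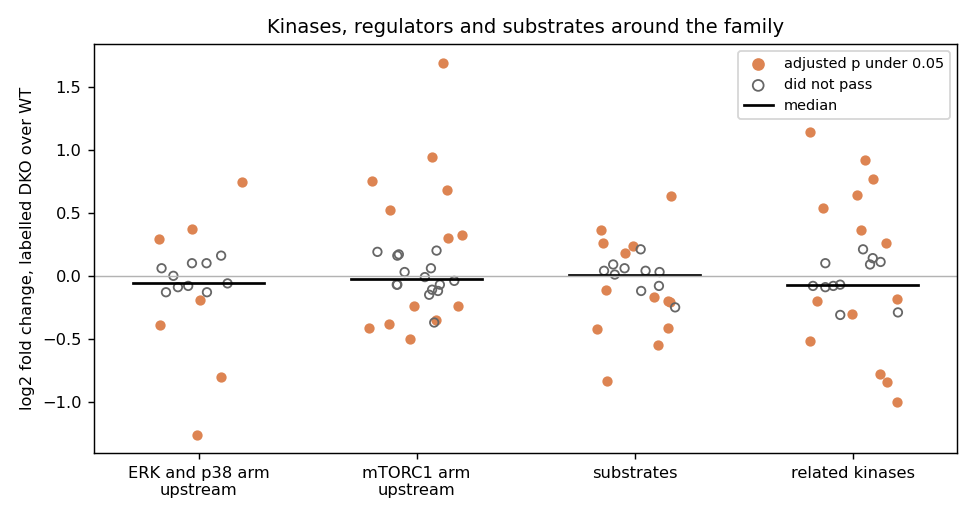
Log2 fold change, libraries labelled DKO over WT, of every tested gene in 4 fixed lists around the family, filled where the edgeR adjusted p was under 0.05, with a line at each list's median. The medians lie between -0.07 and 0.01, and each list has filled points on both sides of 0.

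Genes listed as encoding substrates of these kinases moved in both directions. Flna, which encodes filamin A, a substrate of RSKs, fell from 268 ± 7.33 to 183 ± 10.1 CPM, a log2 change of -0.55 (edgeR adjusted p = 3.2e-11). Mitf, a transcription factor under RSK and ERK control, fell by 0.83 on the log2 scale, and the nuclear receptor gene Nr4a1 by 0.41. Pdcd4, a translation inhibitor that S6K1 marks for destruction, rose from 16.6 ± 1.01 to 25.8 ± 1.81 CPM, and Eif4ebp1, which encodes the cap-binding inhibitor 4E-BP1, from 464 ± 27.5 to 596 ± 18 CPM. Cad (0.24), of pyrimidine synthesis, Creb1 (0.18), a substrate of MSKs, and Rictor (0.26), of mTORC2, rose as well. Of 23 tested members 5 rose and 8 fell, with a median of 0.01, so 56.5% passed, beside 47.8% of all genes tested. Eif4ebp1 and Eif4ebp2 are counted here, though the proteins they encode are known chiefly as substrates of mTORC1 itself. Ybx1 (0.04) and Eif4b (0.03) did not pass. The 50 genes nearest to Eif4ebp1, on chromosome 8, had a median of 0.49, and those nearest to Mitf, on chromosome 6, one of -0.28. The calls of Creb1 (without WT 4 or DKO 2, edgeR adjusted p = 0.0519 and 0.0571) and Rictor (without WT 1, WT 3 or DKO 5, 0.0717, 0.0756 and 0.109) were lost when any 1 of the libraries named was left out. That of Rictor was also lost with DESeq2 (adjusted p = 0.0595) and with the replicate block (edgeR adjusted p = 0.107). Rps6, which encodes the namesake substrate, had 2 to 4 counts in every library, below the read minimum, and it has many processed copies among which reads may be split. Irs1 was also below the minimum, with 17 and 36 counts in the groups.

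Of related kinases outside the family, Prkaca, the catalytic subunit of protein kinase A, fell from 375 ± 14.9 to 218 ± 14.2 CPM, a log2 change of -0.78 (edgeR adjusted p = 5.4e-15). It lies on chromosome 8, where the 50 nearest tested genes had a median of -0.62. Prkci, an atypical protein kinase C, rose from 271 ± 22.5 to 393 ± 11.7 CPM, with Prkca (1.14, from 2.89 to 6.39 CPM) and Stk38l (0.64). The genes nearest to Stk38l, on chromosome 6, had a median of 0.47. Of 25 tested members 7 rose and 7 fell, with a median of -0.07, so 56.0% passed, beside 47.8% of all genes tested. Stk38 (-0.09) and Rock1 (0.09) did not pass, though Rock1 did without WT 3 (edgeR adjusted p = 0.0387). Of the others, Mapkapk5 was at 0 in all 9 libraries, under the floor of 3 counts, and Prkcb and Prkch had 15 and 11 counts. How the counting treated reads of overlapping genes or with several matches is not given in the sources used here, so a count of 0 does not show that Mapkapk5 was not expressed. No member of the RSK and S6 kinase family lies on chromosome 6 or 8, and the median log2 fold change of the chromosomes that carry them ran from -0.03 to 0.10. Nearer by, the medians of the 50 tested genes closest to each member ran from -0.27 (Rps6ka1) to 0.24 (Rps6ka3). Those 50 genes reached from 0.915 Mb (Rps6ka4) to 14.0 Mb (Rps6ka2) from the member, so some of these medians cover wide regions.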

How the data were processed

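The authors deposited raw exon read counts per gene, whole numbers that are not normalized, for 9 libraries. The input was 600 ng of total RNA into a QuantSeq kit, per the labels' protocols. The submitters' processing notes name mm10 as build and, unversioned, DESeq2, STAR, cutadapt and featureCounts. Which annotation and strand setting served the counting is not given in the sources used here. Of 52550 identifiers, 52403 matched GENCODE mouse release 21 on the same build, the source of symbols and positions. Every column was used.

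Genes kept by filterByExpr were scaled by TMM and tested with the robust quasi-likelihood test of edgeR 4.0.16 in R 4.3.3, with a single genotype term and Benjamini-Hochberg adjustment over all genes. An adjusted p under 0.05 counts as passing. CPM use TMM-scaled totals, and means carry the SD. The fold change SE comes from its F statistic, and 95% intervals are 1.96 SE either way. Medians over the 50 nearest tested genes were added after the data were seen. Those 50 genes reached 8.14 Mb from Braf, 9.4 Mb from Mitf, 9.93 Mb from Stk38l, 4.75 Mb from Eif4ebp1 and 1.09 Mb from Prkaca. The script was tested on simulated data. The alternatives were RLE factors, library totals, DESeq2 1.42.0, other filters, a replicate block and leaving out each library. The 16 within-group pairs of libraries had a chi-square per degree of freedom of 2.22 to 4.98, so none looked like 1 library deposited in duplicate. Floors cover counting error only.

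The members and lists were chosen with earlier results of these data known. Named genes were all members, Klf2 and Klf4, from each of 4 pathway lists the 5 passing genes of lowest adjusted p and the 2 most abundant that missed it (minimum 50 CPM), all passing members of a direction with 5 or fewer, the 5 genes most like Rps6kl1, and its 5 nearest protein-coding genes on each side. Some genes that the rule took are counted but not reported here.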

Additional observations from a re-analysis of the deposited data

Results flagged for a closer look

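In 116 groups of libraries, covering the named genes and the summed lists, 8 had 1 library far from the others by Dixon's criterion, and chance alone gives about 5% of groups. Within the family this was Rps6ka4 in DKO 3, at 4.27 CPM against 2.35 to 2.39 in the other libraries labelled DKO. In the same library Rps6kl1 was the lowest of its group, at 14.6 CPM, so for both genes DKO 3 lay nearest to the WT values. Klf4 was low in WT 2 (775 CPM, the others 863 to 878). Of the pathway genes, Nras was low in WT 1 (216, the others 244 to 247), Rock1 high in WT 3 (213, the others 185 to 187), Nr4a1 high in DKO 1 (49.6, the others 40.5 to 42.9) and Rictor high in DKO 5 (38, the others 29.7 to 31.8), all in CPM. Msrb2 was high in WT 1 (21.8 CPM, the others 19.2 to 19.4), and Mlh3, a neighbour of Rps6kl1, low in WT 4 (34.7 CPM, the others 36.7 to 37.1).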

How the results depend on the processing

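The fold changes of Rps6kl1 (3.13 to 3.41 on the log2 scale), Rps6ka4 (-2.05 to -1.78), Rps6ka6 (0.59 to 0.67) and Rps6kb1 (0.35 to 0.45) kept their sign over all 15 alternatives. The number of family members called was 4 to 6 over the leave-one-out fits and 4 to 5 over the others. The ERK and p38 list had 7 of 17 tested genes called in the reported fit. Over the 15 alternatives the number ran from 5, as without DKO 4 (17 tested), to 9 with no read minimum (18 tested). It was 4 of 14 with genes on chromosomes 6 and 8 left out, chosen after the data were seen. The matching share over all genes was not taken, so nothing is read from that change. Of 806 alternative values of 54 named genes, 759 kept direction and side of the threshold, 31 lost their call, 6 gained one and 10 changed sign, none of them called. The sign changes were Rps6ka2 (0.06 with the replicate block, 0.10 without WT 2 and 0.05 without DKO 5, in a leave-one-out range of -0.13 to 0.10), Rps6ka5 (-0.01 without WT 3, range to 0.19), Rps6kb2 (-0.05 without WT 4, -0.00 without DKO 1 and -0.01 without DKO 3, range to 0.08), Mlh3 (0.03 without DKO 2, range from -0.11) and Zc2hc1c (0.02 without WT 1 and 0.02 without WT 2, range from -0.36). Replicate numbers are shared by 8 libraries. Deviations of same-numbered libraries correlated at -0.05 to 0.27, and those of differently numbered ones at -0.27 to 0.18. The labels do not say whether a shared number means a shared culture or run, and these few correlations cannot show it. With the replicate block 5497 genes were called against 5689, and 5 family members as before. The causes were not tested. Depth limits the members under 10 CPM, where counting error alone is 12.2% to 25.8% of a library's value.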
